A study of Mus musculus with 2 samples.

Results

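The 40 genes described here are 19 genes of S phase, in which a cell copies its DNA, and 21 genes of G2 and M phase, in which it prepares for division and divides. They were taken by symbol from a list of known cell cycle genes, by a rule that uses no measured value, and are 40 of the 31053 genes in the count tables. The list itself was chosen with earlier results of these data known. All 40 had UMIs (unique molecular identifiers, each 1 captured RNA molecule) in both libraries. Cells were sorted into types by marker genes that hold none of the 40.

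A cell enters S phase after MCM helicase complexes have been loaded on its DNA and cyclin E kinases have become active. E2F transcription factors drive many genes of this step, and the MuvB complex, with B-Myb and FoxM1, later drives genes of G2 and mitosis. In the epidermis division is largely the work of basal cells, while suprabasal cells differentiate, and psoriasis-like inflammation is known for an expanded, dividing epidermis.

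Skin cells from 2 groups of female C57BL/6 mice aged 6 to 8 weeks were measured in 1 library each: wild type (WT) and Chrna5-/- (KO), which lacks a nicotinic acetylcholine receptor subunit. Both groups carried the same treatment, 62.5 mg of 5% imiquimod cream, a Toll-like receptor agonist, on shaved backs for 6 days, with collection on day 7. Dorsal skin was digested with collagenase and cells that took up a dead-cell dye were removed by sorting. The sort was not limited to the epidermis, and the libraries hold dermal and immune cells as well. The labels give 5 mice per experimental group, state a backcross to C57BL/6N but name C57BL/6J for the digested skin, and leave unsaid how many mice a library holds. The knockout is not described as limited to 1 cell type, and untreated skin was not analysed here.

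The WT library held 147260653 UMIs in 14557 barcodes and the KO library 123839924 in 10886, with 49 barcode sequences present in both. After filtering, 13938 WT cells (median 4603 UMIs) and 10233 KO cells (median 6374 UMIs) remained. With 1 library per genotype every difference below is one between 2 libraries, with no replicate check and no test. Intervals are 95% intervals and cover counting error only, and UMI counts of different cells and genes share their library. Chrna5 (GENCODE M21 on GRCm38, chromosome 9, 54980880 to 55007779) had 12 UMIs in WT and 6 in KO cells, and 9 and 0 in keratinocyte-like cells, where a count of 0 allows up to 3. The deleted part is not given, so these counts do not check the label. A gene counts as higher or lower when its levels differ by 1.5-fold or more and it has at least 20 UMIs in the 2 libraries together. Levels are counts per 1000000 UMIs of the class in that library (CPM), which are not scaled to gene length, so they compare libraries and not genes. Ccna2, Ccne2, Cdc20, Cdt1, Fen1, Gins2, Mcm7, Nusap1 and Ube2c overlap another protein-coding gene, and whether counting used the strand is not given, so their values are less certain. Of these only Cdt1 overlaps a gene on the same strand (Gm20388), which counting by strand would not separate. Over all kept cells 18 of the 21 G2/M genes were lower in KO, against 8.21% of the genes measured, and 0 were higher, against 23.7%. Of the S phase genes 7 were lower and 2 higher there.

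Keratinocyte-like cells carried most UMIs of the 40 genes, as they did of all genes (99341303 of 145944152 UMIs in WT, 70386796 of 122486354 in KO). In them the G2 and M phase genes were lower in the KO library, and more S phase genes were lower than higher. The class held 6605 WT and 3291 KO cells. Krt14 was seen in 96.8% of its WT and 96.7% of its KO cells, and Krt5 in 78.7% and 67.0%. All 21 G2/M genes had a KO over WT ratio below 1 with an interval below 1, and 17 of them were lower by 1.5-fold or more, against 12.4% of the 15338 genes measured. None was higher, against 15.0%. The median log2 ratio was -1.06 for the G2/M genes, -0.53 for the S phase genes and 0.05 for all genes. Of the 19 S phase genes 9 were lower (47.4%, against 12.4% of all genes) and 2 were higher (10.5%, against 15.0%). The higher ones were thus no more frequent than among all genes.

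**Figure D1:**
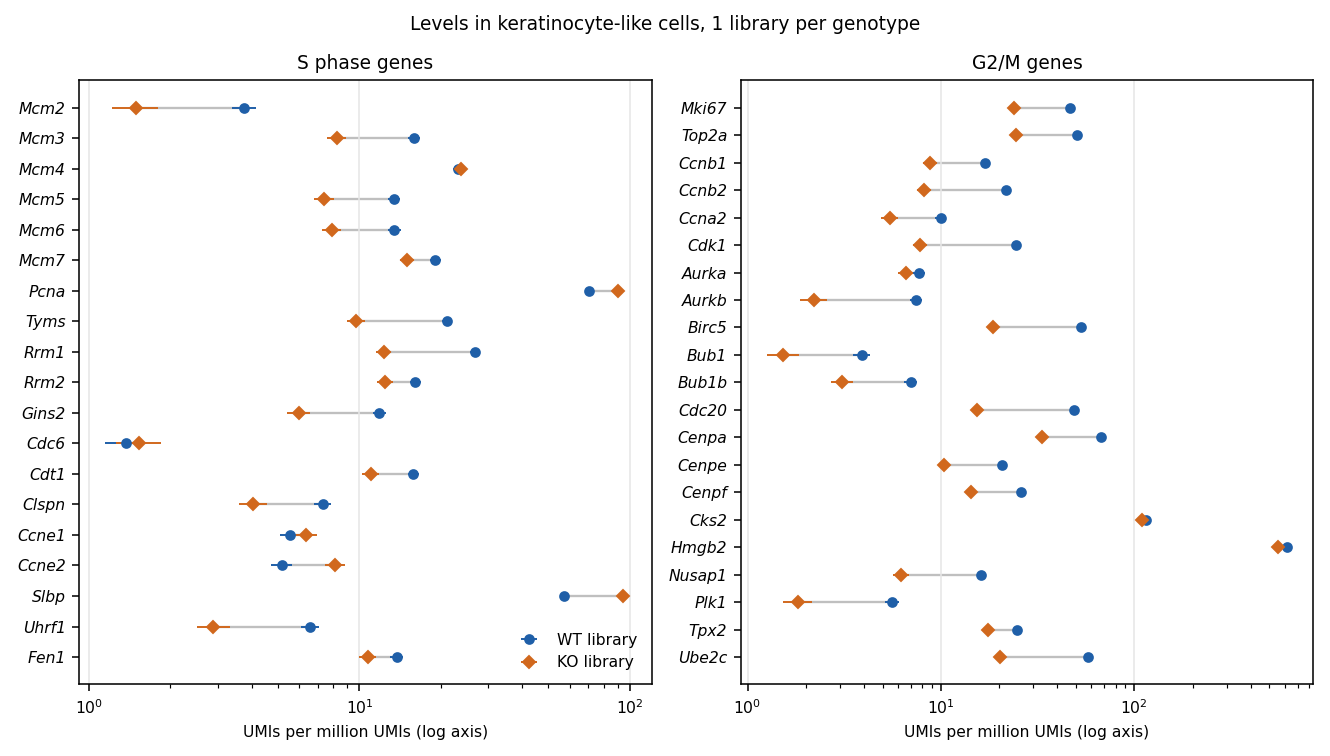
Level of each gene in keratinocyte-like cells (CPM, log axis) in the WT library (circles) and the KO library (diamonds), with exact Poisson 95% intervals of counting error. Every G2/M gene lies lower in KO, by the least in Cks2 and Hmgb2, and Slbp, Pcna and Ccne2 lie higher in KO.

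The genes of the mitotic exit and chromosome passenger machinery had ratios among the lowest. Aurkb, the kinase of the chromosomal passenger complex that corrects faulty attachments, had 7.41 CPM in WT and 2.20 in KO, a ratio of 0.297 (0.248 to 0.354). Birc5, or survivin, a subunit of the same complex, had 53.2 and 18.6 CPM (0.351, 0.330 to 0.372). Cdc20, the activator of the anaphase-promoting complex, had 48.9 and 15.4 CPM (0.314, 0.294 to 0.336). These genes were 2.85 to 3.36 times lower in KO, beyond counting error. Ube2c, the ubiquitin-conjugating enzyme of the anaphase-promoting complex, had 57.8 and 20.3 CPM, a ratio of 0.351.

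The mitotic kinases and cyclins were lower as well, with Aurka and the spindle factor Tpx2 closest to 1. Cdk1, the kinase that starts mitosis, had 24.5 CPM in WT and 7.83 in KO (0.320, 0.291 to 0.351). Plk1, which acts in centrosome maturation and spindle assembly, had 5.57 and 1.82 CPM (0.327, 0.267 to 0.397). Of the cyclins that partner Cdk1, Ccnb2 (0.377) was further below 1 than Ccnb1 (0.521) and Ccna2 (0.543), and the interval of Ccnb2 did not overlap the others. Aurka, the centrosome kinase related to Aurkb, had 7.67 and 6.56 CPM, a ratio of 0.856 (0.761 to 0.962). Tpx2, a partner of Aurka in spindle assembly, had 24.6 and 17.5 CPM (0.712), so this pair did not reach 1.5-fold.

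Among the kinetochore and checkpoint genes, Bub1 (0.395) and Bub1b (0.442), kinases of the spindle assembly checkpoint, had lower ratios than the centromere proteins. Cenpa, the histone H3 variant of centromeres, had 66.97 CPM in WT and 33.3 in KO (0.497). Cenpe, a kinetochore motor, had a ratio of 0.502 and Cenpf, a kinetochore protein, one of 0.551. Nusap1, which binds spindle microtubules, was at 0.383.

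The common proliferation markers Mki67 and Top2a were near the middle of the list. Mki67, which coats mitotic chromosomes, had 46.5 CPM in WT and 23.8 in KO (0.511, 0.483 to 0.541). Top2a, which untangles replicated DNA, had 50.7 and 24.3 CPM (0.480, 0.454 to 0.507).

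Hmgb2, a chromatin protein, and Cks2, a small subunit of the Cdk1 complex, stood apart. Hmgb2 had 612 CPM in WT and 553 in KO (0.903, 0.891 to 0.914), and Cks2 had 114 and 110 CPM (0.960, 0.933 to 0.988). Within ranges of the class, described further on, these directions turned: Cks2 lay above 1 in all 3, and Hmgb2 in the outer follicle and Krt79 ranges. Hmgb2 alone made up 49.3% of the G2/M UMIs of WT and 61.96% of those of KO keratinocyte-like cells. The summed G2/M level therefore rested on it: the sum was 1243 CPM in WT and 892 in KO (0.718), and without Hmgb2 and Cks2 it was 516 and 229 (0.445).

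The S phase genes lay on both sides of 1. Of the 6 MCM genes, which encode the replicative helicase, Mcm2 (0.397, 0.317 to 0.495), Mcm3 (0.519), Mcm5 (0.551) and Mcm6 (0.585) were lower by more than 1.5-fold in KO. Mcm7 was at 0.785. Mcm4 had 23.05 CPM in WT and 23.6 in KO (1.03, 0.962 to 1.09), whose interval held 1.

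The genes of nucleotide supply lay below 1 by unequal amounts. Rrm1, the large subunit of ribonucleotide reductase, had 26.7 CPM in WT and 12.3 in KO (0.460, 0.425 to 0.497). Rrm2, its small subunit, had 16.1 and 12.5 (0.773, 0.711 to 0.840). Tyms, thymidylate synthase, had 21.1 and 9.73 (0.460). The intervals of the 2 reductase subunits did not overlap.

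Among the other replication factors, Uhrf1 (0.440), which brings the maintenance methyltransferase to new DNA, Gins2 (0.502), a subunit of the replicative helicase, and Clspn (0.554), the fork protein claspin, were lower. Cdt1, the MCM loader, was at 0.695 and the flap nuclease Fen1 at 0.783. Cdc6, the other MCM loader, had only 136 UMIs in WT and 108 in KO, and its interval held 1 (1.12, 0.862 to 1.45).

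Slbp, Ccne2, Pcna and Ccne1 were on the other side. Slbp, which binds the stem-loop of replication-dependent histone RNAs, had 57.3 CPM in WT and 94.1 in KO (1.64, 1.59 to 1.70). Ccne2, cyclin E2, had 5.15 and 8.14 (1.58, 1.40 to 1.78) and Ccne1, cyclin E1, 5.55 and 6.35 (1.15, 1.01 to 1.30). Pcna, the sliding clamp of DNA polymerases, had 70.7 and 90.6 (1.28, 1.24 to 1.33). Slbp and Pcna held 36.8% of the S phase UMIs of WT and 55.4% of those of KO cells, and so the summed S phase level was 348 CPM in WT and 333 in KO (0.958) but 220 and 149 (0.676) without them.

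Other features of the class moved with these differences. The median cell had 5594 UMIs in WT and 16448 in KO, and the median mitochondrial share was 2.19% and 3.04%. Basal keratinocyte markers (9 genes) summed to 7680 CPM in WT and 4653 in KO, outer hair follicle markers (8 genes) to 1413 and 2178, and upper hair follicle markers (8 genes) to 13792 and 24733. The neutrophil list (9 genes) summed to 13116 and 567 CPM, almost all from S100a8 (6780 and 268 CPM) and S100a9 (6332 and 297 CPM), which keratinocytes also express. The defining neutrophil marker Ly6g was at or near 0 in both libraries. The part of these features in the result was not tested. In cells with at least 5000 UMIs (3421 WT and 2569 KO) the G2/M median was -1.04 with 17 genes lower and 0 higher, and the S phase median was -0.56 with 9 lower and 2 higher. Of all genes in these deeper cells 11.2% were lower and 15.8% higher.

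Promoter windows from RefSeq (GRCm38.p6, 250 bases before to 50 after a start) were matched by symbol for 34 of the 40 genes. Windows of 6 are shown as examples: some lower G2/M genes, some lower helicase genes and the higher Slbp. Capitals mark CCAAT, the CHR element TTTGAA or TTCGAA, and the E2F-type word TTTNNCGC, each on either strand, and a run of capitals can hold overlapping matches. The examples do not represent their lists. Birc5 and Nusap1, also lower G2/M genes, held no CHR or CCAAT word, and Mcm2, also a lower helicase gene, held no E2F-type word. The windows are chr9:70421505-70421804 (minus strand) for Ccnb2, chr4:118437294-118437593 (minus) for Cdc20, chr7:135716330-135716629 (minus) for Mki67, chr8:75109259-75109558 (plus) for Mcm5, chr1:128359656-128359955 (minus) for Mcm6 and chr5:33652525-33652824 (minus) for Slbp, each written 5′ to 3′ along its gene.
Ccnb2: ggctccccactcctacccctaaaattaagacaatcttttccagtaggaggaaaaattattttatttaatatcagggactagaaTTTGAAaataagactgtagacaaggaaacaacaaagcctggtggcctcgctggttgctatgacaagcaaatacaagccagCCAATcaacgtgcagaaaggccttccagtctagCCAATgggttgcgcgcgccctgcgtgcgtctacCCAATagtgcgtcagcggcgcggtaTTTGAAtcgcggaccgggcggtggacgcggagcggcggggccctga
Cdc20: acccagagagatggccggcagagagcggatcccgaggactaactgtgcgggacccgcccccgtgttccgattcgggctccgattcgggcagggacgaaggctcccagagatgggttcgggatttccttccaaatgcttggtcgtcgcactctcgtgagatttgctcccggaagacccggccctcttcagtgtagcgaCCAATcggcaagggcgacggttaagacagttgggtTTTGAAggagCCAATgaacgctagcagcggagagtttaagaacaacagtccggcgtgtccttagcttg
Mki67: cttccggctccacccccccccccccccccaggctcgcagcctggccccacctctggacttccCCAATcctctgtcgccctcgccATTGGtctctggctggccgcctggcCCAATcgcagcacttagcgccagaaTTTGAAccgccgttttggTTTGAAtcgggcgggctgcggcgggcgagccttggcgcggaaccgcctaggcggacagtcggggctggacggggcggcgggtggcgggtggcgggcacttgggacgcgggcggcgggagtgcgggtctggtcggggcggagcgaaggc
Mcm5: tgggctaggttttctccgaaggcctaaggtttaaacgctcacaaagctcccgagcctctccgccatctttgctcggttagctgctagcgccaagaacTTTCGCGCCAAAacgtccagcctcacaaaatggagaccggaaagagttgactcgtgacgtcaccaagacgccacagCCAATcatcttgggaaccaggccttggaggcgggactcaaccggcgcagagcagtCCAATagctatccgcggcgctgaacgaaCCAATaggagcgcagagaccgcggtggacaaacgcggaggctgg
Mcm6: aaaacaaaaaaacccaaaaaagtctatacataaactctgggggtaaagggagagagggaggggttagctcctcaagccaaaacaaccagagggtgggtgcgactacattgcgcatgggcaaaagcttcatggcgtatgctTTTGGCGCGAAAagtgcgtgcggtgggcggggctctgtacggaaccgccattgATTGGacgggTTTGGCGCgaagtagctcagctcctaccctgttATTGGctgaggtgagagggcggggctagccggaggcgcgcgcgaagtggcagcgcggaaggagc
Slbp: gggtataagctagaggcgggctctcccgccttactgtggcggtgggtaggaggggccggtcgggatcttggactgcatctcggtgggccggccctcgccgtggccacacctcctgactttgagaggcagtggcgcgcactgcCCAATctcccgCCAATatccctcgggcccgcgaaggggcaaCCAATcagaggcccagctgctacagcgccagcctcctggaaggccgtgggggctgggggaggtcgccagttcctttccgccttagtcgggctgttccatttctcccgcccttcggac

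A CHR word stood in the window of 13 of the 18 matched G2/M genes (72.2%), of 3 of the 16 matched S phase genes (18.8%) and of 21.7% of the 27025 genes with a window. The word TTTNNCGC stood in 9 of 16 S phase genes (56.2%), in 1 of 18 G2/M genes (5.56%) and in 5.93% of all. CCAAT stood in 16 of 18 G2/M genes and 11 of 16 S phase genes, against 41.1% of all genes. A gene counted when any of its windows held the word, in the lists and among all genes. Fen1, Mcm7 and Uhrf1 had more than 1 window. Fen1 and Mcm7 held the CHR word in only 1 of theirs, as Mcm7 did the word TTTNNCGC. The 2 lists thus differed in the words their windows held. A match describes letters and is neither a site nor a cause. Whether E2F-type words went with the ratios of the S phase genes was not tested. Of the matched genes with a ratio below 1, Cdt1, Clspn, Mcm3, Mcm5, Mcm6, Mcm7, Tyms and Uhrf1 held the word. Fen1, Mcm2, Rrm1 and Rrm2, also below 1, held none. Of the genes with a ratio above 1, Slbp, Pcna and Ccne1 held none and Cdc6 held 1. Hmgb2, with a ratio of 0.903, held 2 CHR words and Cdc20, with 0.314, held 1. Birc5, Nusap1, Ccnb1, Cenpe and Cks2, also with ratios below 1, held no CHR word.

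The detection of the genes cell by cell showed where their UMIs sat. Each keratinocyte-like cell was reduced at random to 5000 UMIs, a depth that dropped 3184 of 6605 WT and 722 of 3291 KO cells. Cells with 5 or more different G2/M genes made up 12.7% of WT and 6.38% of KO cells. They held 47.3% of the G2/M UMIs of WT and 24.9% of those of KO. The mean per such cell was 17.7 G2/M UMIs in WT and 17.3 in KO, a value that the choice of these cells by G2/M genes partly sets. Cells with 5 or more S phase genes were 3.42% and 1.87%, and cells with 3 to 4 were 14.1% and 15.96%.

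The genes differed in how far they were limited to cells with several G2/M genes. Cells with 3 or more different G2/M genes (799 in WT, 448 in KO) were chosen by these genes, so the G2/M values here are a description. Cdk1 had 95.8% of its UMIs in such cells in WT and 97.2% in KO, and Birc5 92.8% and 92.6%. Hmgb2 (44.5% in WT, 29.1% in KO) and Cks2 (55.4% and 37.9%) were spread more widely. The S phase genes were not used for that choice. Clspn (85.4% of its UMIs in WT, 76.5% in KO), Mcm5 (71.3% and 62.5%) and Uhrf1 (70.8% and 63.6%) lay mostly in such cells in both libraries, and Mcm3 did in WT (72.9%) but not in KO (49.5%). Slbp (20.9% and 19.6%), Pcna (23.1% and 21.7%), Ccne2 (29.3% and 30.4%) and Mcm7 (29.8% and 26.9%) lay mostly outside them. Most cells lay outside too, since the group was 799 of 3421 WT and 448 of 2569 KO cells. These shares are not adjusted for the size of the group. Mcm7 and Ccne2 still had higher CPM inside the group than outside it in both libraries, and Slbp and Pcna did in KO only.

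**Figure D2:**
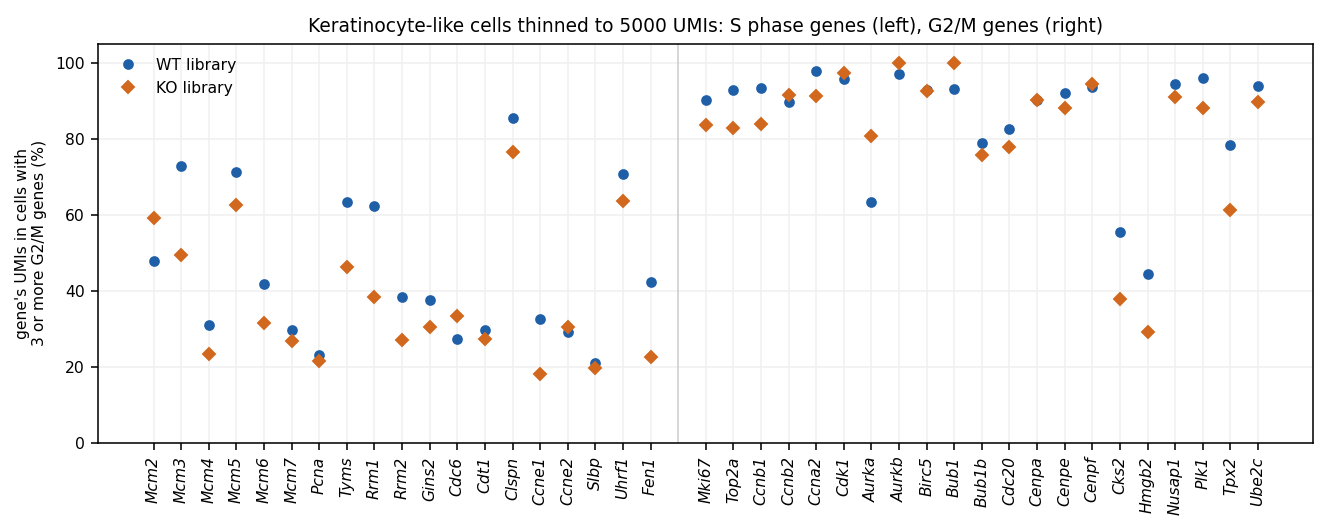
Share of each gene's UMIs (percent) that lay in keratinocyte-like cells with 3 or more different G2/M genes, after thinning to 5000 UMIs, in the WT library (circles, 799 such cells) and the KO library (diamonds, 448 such cells). The G2/M genes chose the cells and lie high for that reason, apart from Hmgb2 and Cks2, while Slbp and Pcna lie near 20%.

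In the cells outside this group the levels of several genes were higher in KO. Slbp had 76.3 CPM in WT and 114.8 in KO there, Pcna 80.5 and 96.6, Hmgb2 387 and 510, and Cks2 56.1 and 87.0. Inside the group, Cdk1 had 57.6 and 31.2 CPM, Birc5 130 and 66.96, Ube2c 129 and 70.1, and Cdc20 111 and 53.6. Other genes were higher in KO inside the group as well. Aurka had 17.8 CPM in WT and 28.1 in KO there, Slbp 66.1 and 132, Pcna 79.3 and 126, and Cks2 229 and 252. Hmgb2 had 1020 and 992 CPM inside the group. Cdk1, Birc5, Ube2c, Cdc20, Aurka, Cks2 and Hmgb2 are among the genes that chose the cells. Their values inside and outside the group are partly set by that choice and are a description. At 5000 UMIs Hmgb2 was seen in 82.5% of WT and 85.6% of KO keratinocyte-like cells, and Cks2 in 30.9% and 36.2%. How far this changed which cells entered the group was not tested.

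Detection alongside Mki67 gave the same split. In WT, Top2a was seen in 168 of 358 cells with Mki67 (46.9%) and in 6.56% of the 3063 cells without it. In KO it was seen in 57 of 185 (30.8%) and in 4.82% of 2384. Rrm1 was seen in 24.9% of the WT cells with Mki67 and 7.08% of those without, and Mcm5 in 13.4% and 3.36%. Slbp was about as frequent with Mki67 (26.5%) as without (28.2%) in WT, and so it was in KO (36.8% and 37.8%).

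The share of cells with a UMI of Mki67 or Top2a depended on depth. Thinned to 1000 UMIs, it was 6.38% (5.72 to 7.08) among 5128 WT keratinocyte-like cells and 3.25% (2.66 to 3.94) among 3073 from KO, and 1477 WT and 218 KO cells were too shallow to enter. Thinned to 5000 UMIs it was 16.3% (15.1 to 17.6) and 11.7% (10.5 to 12.98). Without thinning it was 22.2% and 22.1%. The fibroblast-like cells, at median depths of 7354 and 6476 UMIs, gave 0.625% and 0.221% at 1000 UMIs, below the keratinocyte-like cells of the same library. The share of cells with 2 or more of the 40 genes had overlapping intervals at 1000 UMIs, at 28.2% (26.9 to 29.4) for WT and 26.2% (24.7 to 27.8) for KO. Cells with 2 or more G2/M genes were 16.2% (15.2 to 17.2) and 11.5% (10.4 to 12.7), and cells with 2 or more S phase genes 4.82% (4.25 to 5.44) and 5.66% (4.87 to 6.54).

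Keratinocyte-like cells were then divided by other marker genes into ranges, which are cuts of a marker level and not cell types. The basal range held 1834 WT and 524 KO cells (27.8% and 15.9% of the class), the outer follicle range 1644 and 1165 (24.9% and 35.4%) and the Krt79 range, named for an upper follicle keratin, 2023 and 1104 (30.6% and 33.5%). Membership was sensitive to the cuts: between all range cuts 1.25 times lower and 1.25 times higher, 846 WT and 358 KO cells entered or left the basal range, 668 and 328 the outer follicle range and 313 and 142 the Krt79 range. For the basal range in particular these are many beside its own cells. The basal range had the highest G2/M sum in both libraries, 1895 CPM in WT and 1368 in KO, a ratio of 0.722 (0.708 to 0.736). In the outer follicle range the sums were 1130 and 1107 CPM (0.979), and in the Krt79 range 749 and 708 (0.945). Without Hmgb2 and Cks2 the ratios of the sums were 0.531 in the basal, 0.736 in the outer follicle and 0.541 in the Krt79 range.

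The number of lower G2/M genes differed between the ranges. In the basal range 16 of 21 were lower, against 13.7% of genes measured, with a median log2 ratio of -0.79. In the Krt79 range 17 were lower, against 14.4%, with a median of -0.89. In the outer follicle range 7 were lower, against 12.4%, with a median of -0.49. The difference between the ranges has no test. Of the S phase genes 8 were lower and 2 higher (background 15.8%) in the basal range. In the outer follicle range 4 were lower and 2 higher (11.8%), and in the Krt79 range 5 were lower and 4 higher (11.4%).

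**Figure D3:**
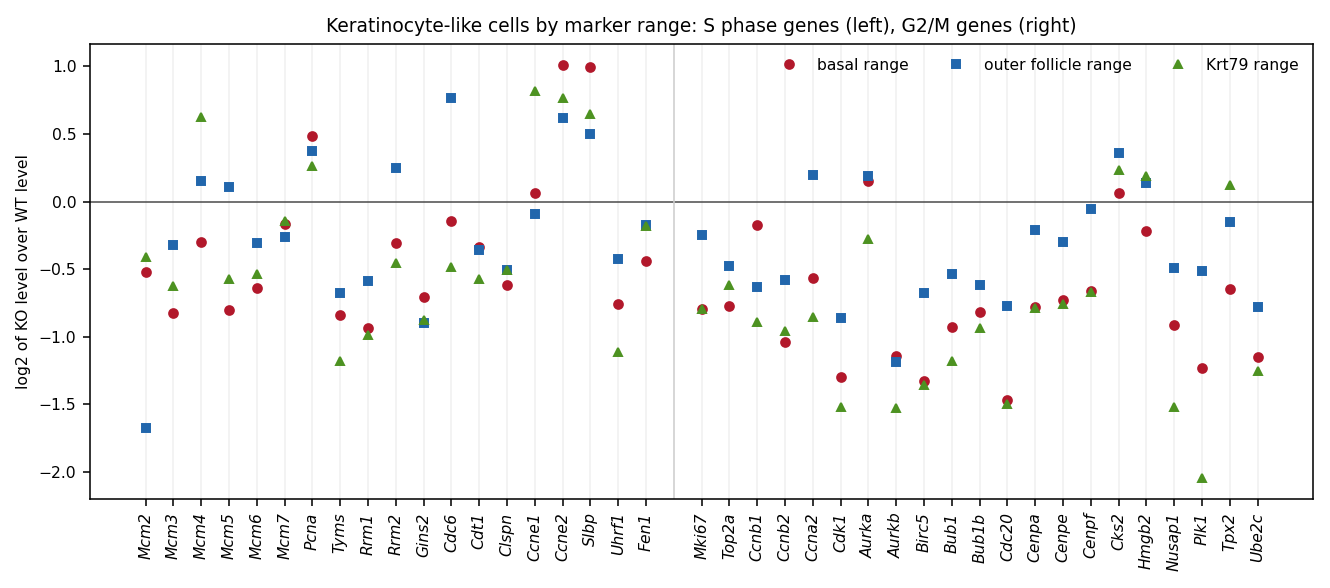
Log2 of the KO level over the WT level of each gene in the basal range (circles), the outer follicle range (squares) and the Krt79 range (triangles) of keratinocyte-like cells, 1 library per genotype. Cdk1, Aurkb, Birc5, Cdc20 and Ube2c lie under 0 in all 3 ranges, and Pcna, Ccne2, Slbp and Cks2 lie above 0 in all 3.

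Of the 21 G2/M genes 16 had a ratio below 1 in all 3 ranges, and of the 19 S phase genes 11. Cdc20 was at 0.363 in the basal, 0.587 in the outer follicle and 0.355 in the Krt79 range. Cdk1 was at 0.407, 0.551 and 0.349, and Mki67 at 0.577, 0.842 and 0.576. The outer follicle range lay closest to 1 for each of these genes. Slbp was at 1.998, 1.42 and 1.56, Ccne2 at 2.02, 1.54 and 1.70, and Pcna at 1.40, 1.29 and 1.20. Hmgb2 was at 0.859 in the basal range (848 and 728 CPM), 1.10 in the outer follicle range (598 and 659) and 1.14 in the Krt79 range (430 and 489). Cks2 was at 1.05, 1.28 and 1.18, and its basal interval held 1 (0.988 to 1.11). Besides Hmgb2, the genes not on 1 side of 1 were Ccna2 (0.676, 1.15 and 0.554), Aurka (1.11, 1.14 and 0.826), Mcm4 (0.813, 1.11 and 1.55), Tpx2, Ccne1, Cdc6, Mcm5 and Rrm2.

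When the KO levels of the ranges were weighted by each range's share of UMIs in WT, the ratio of the G2/M sum was 0.835 instead of 0.718, and that of the S phase sum 1.03 instead of 0.958. The median log2 ratio of the G2/M genes was then -0.66. The S phase sum thereby changed side, while its median stayed below 0 (-0.40).

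At 5000 UMIs, cells with Mki67 or Top2a made up 26.3% (23.8 to 29.0) of the WT and 17.2% (13.6 to 21.2) of the KO basal range. They made up 12.6% (10.8 to 14.6) and 13.5% (11.4 to 15.8) of the outer follicle range, and 9.12% (7.13 to 11.4) and 9.04% (7.16 to 11.2) of the Krt79 range. At this depth the intervals overlapped in the outer follicle and Krt79 ranges and did not in the basal range. At 1000 UMIs the WT share was higher in all 3, at 10.3% against 3.93%, 4.28% against 3.47% and 5.00% against 3.102%. Here too the intervals overlapped in the outer follicle and Krt79 ranges. Of these 3 ranges the Krt79 range differed most in depth, with a median of 2019 UMIs in WT and 19908 in KO.

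**Figure D4:**
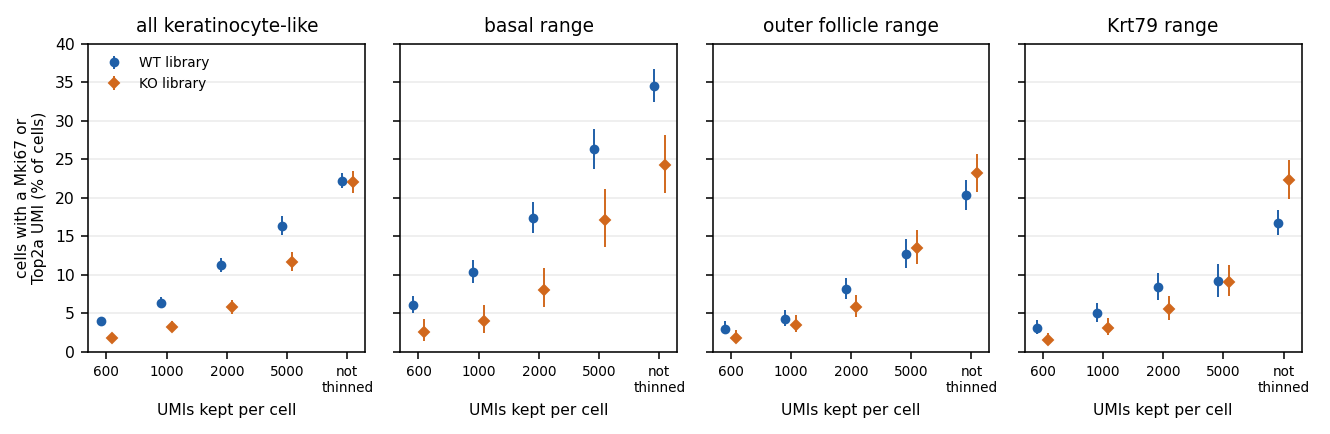
Percent of cells with a UMI of Mki67 or Top2a in all keratinocyte-like cells and in the 3 ranges, after thinning to 600, 1000, 2000 or 5000 UMIs and without thinning, in the WT (circles) and KO (diamonds) libraries, with exact Clopper-Pearson 95% intervals of counting error. In the basal range WT lies above KO at every depth shown, and in the outer follicle and Krt79 ranges the libraries meet at 5000 UMIs.

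Fibroblast-like cells (2248 WT and 2732 KO, Dcn in 100% and 99.8%) had low levels of most G2/M genes in both libraries. Of the 40 genes 36 had at least 20 UMIs. Of 18 G2/M genes 6 were lower, against 8.44% of the 12790 genes measured, and 1 was higher, against 16.4%. Of 18 S phase genes 5 were higher and 0 lower. The median log2 ratio was -0.43 for the G2/M and 0.25 for the S phase genes, with 0.10 for all genes. Under a stricter gate the G2/M median was -0.00126 and with cells thinned to 1000 UMIs it was 0.013, so its direction depended on these settings.

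Mki67 in this class had 3.94 CPM in WT and 1.32 in KO (0.336, 0.202 to 0.542), and Top2a 3.83 and 1.65 (0.432, 0.271 to 0.675). Cdk1 had 19 and 5 UMIs (0.250, 0.0730 to 0.693) and Cenpf 22 and 6 (0.259, 0.0860 to 0.660). The other lower G2/M genes, Ccna2 (0.444) and Cenpe (0.634), and the higher one, Aurka (1.79), had intervals that held 1. The keratinocyte markers in these cells stood at 3.73% of their keratinocyte-like level in WT and 2.37% in KO. Mki67 stood at 8.48% and 5.57%, Top2a at 7.55% and 6.80%, and the G2/M genes without Hmgb2 and Cks2 together at 6.14% and 10.1%. The part of free keratinocyte RNA in these low levels was not tested.

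Of the S phase genes in fibroblast-like cells, Mcm6 had 4.64 CPM in WT and 7.67 in KO (1.65, 1.25 to 2.20), on the other side of 1 from keratinocyte-like cells. Ccne1 had 15 and 39 UMIs (2.47, 1.33 to 4.83), Ccne2 15 and 41 (2.60, 1.41 to 5.06) and Cdc6 4 and 23 (5.47, 1.87 to 21.8). Both cyclins E and an MCM loader were thus higher in KO on few UMIs, as was Clspn (2.38, 0.872 to 7.48), whose interval held 1. Pcna had 117.3 and 148.1 CPM (1.26), Slbp 74.7 and 92.8 (1.24), Mcm7 13.98 and 19.97 (1.43), Hmgb2 160.7 and 155 (0.964) and Cks2 54.6 and 78.9 (1.45).

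In the monocyte and macrophage-like class, with 714 WT and 652 KO cells and Lyz2 in 98.5% and 98.9% of them, Pcna differed most among the genes of high UMI count. Pcna had 140.7 CPM in WT and 285.2 in KO (2.03, 1.86 to 2.21). The S phase sum, of which it is the largest part, was 317 CPM in WT and 517 in KO (1.63). Slbp had 64.6 and 91.6 CPM (1.42, 1.24 to 1.62) and Cdt1 34.1 and 48.6 (1.42, 1.18 to 1.72). These genes lay above 1 with intervals that left out 1.

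Mki67 had 20.2 and 9.80 CPM in these cells (0.485, 0.337 to 0.685), and Cenpa 64.2 and 46.4 (0.722, 0.610 to 0.854). Of the 10 G2/M genes with 20 UMIs 4 were lower, against 12.1% of the 10182 genes measured, and 0 were higher, against 14.6%. The lower ones were Mki67, Ccnb2 (0.494), Birc5 (0.570) and Ube2c (0.624), and the intervals of the last 3 held 1. Of 17 S phase genes 3 were lower, Tyms (0.441, 0.146 to 1.13), Uhrf1 (0.578) and Ccne1 (0.617), and 3 higher, Pcna, Mcm2 (2.51, 0.963 to 6.98) and Cdc6 (1.54). Of these only the interval of Pcna left out 1. The G2/M median was -0.44 and turned to 0.25 with cells thinned to 1000 UMIs, and the S phase median was 0.37. At 5000 UMIs, cells with Mki67 or Top2a had a share of 9.37% (7.14 to 12.02) in WT and of 4.98% (3.15 to 7.44) in KO. At 1000 UMIs they were 1.42% and 1.88%, in the other order. In these cells C1qa was seen in 73.5% of WT and 90.3% of KO cells, and Ccr2 in 18.1% and 7.98%, so markers within the class differed as well, and their part was not tested.

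**Figure D5:**
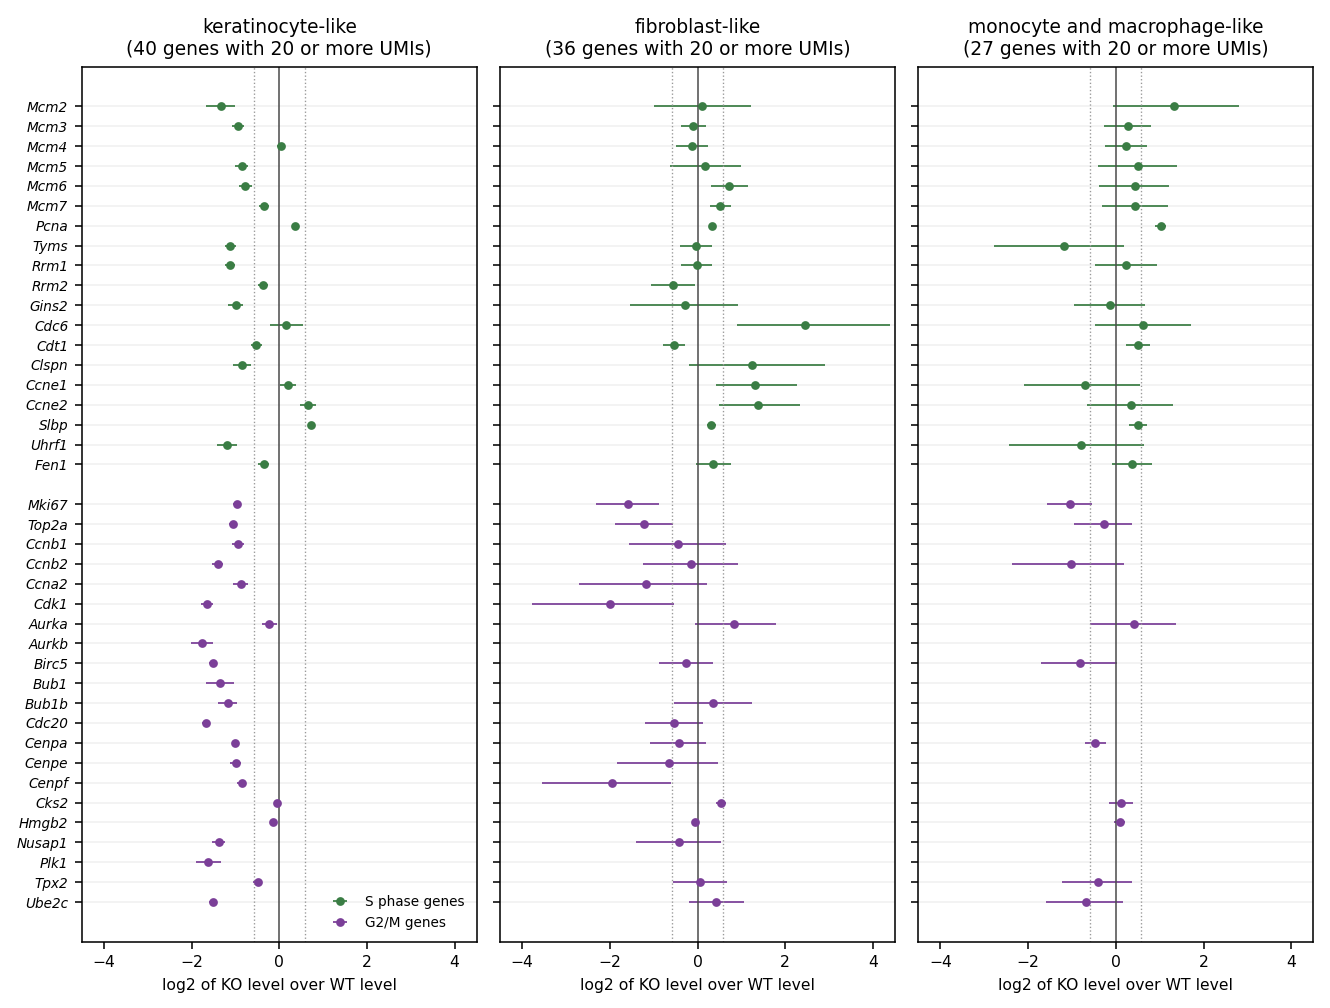
Log2 of the KO level over the WT level of each gene with 20 or more UMIs in keratinocyte-like, fibroblast-like and monocyte and macrophage-like cells, with exact 95% intervals of counting error, dotted lines at 1.5-fold and 1 library per genotype. All 21 G2/M genes lie under 0 in keratinocyte-like cells, while Pcna and Slbp lie above 0 in all 3 classes.

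Other classes had under 200 cells in a library and were not compared. Among them the T cell-like cells (112 WT and 392 KO) had a G2/M sum of 1049 CPM in WT and 1330 in KO, below the keratinocyte-like sum in WT and above it in KO, led by Hmgb2 and Cenpa in UMIs (279 and 190 in WT, 1025 and 744 in KO). Their S phase sum was 387 and 524 CPM. Langerhans-like cells (124 and 142) had 637 and 651 CPM of G2/M genes, and vascular endothelial-like cells (100 and 184) 360 and 261.

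Lists of other cell cycle genes were counted in the same way in keratinocyte-like cells, where 12.4% of all genes measured were lower and 15.0% higher. Of 53 other mitosis genes 39 were lower and 0 higher, with a median log2 ratio of -0.88. The lowest were Melk (4.30 CPM in WT, 1.28 in KO, 0.297), Pbk (0.298), both mitotic kinases, and Cdca8 (44.7 and 15.8, 0.354), borealin of the passenger complex. Of 42 other replication genes 22 were lower and 0 higher, with a median of -0.62. Thymidine kinase Tk1 (12.4 and 3.57 CPM, 0.287) and the polymerase subunit Pole (0.337) were the lowest.

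The counts of the regulators and of the G1 genes were near these shares of all genes. Of 23 transcription regulators of the cycle 2 were lower, E2f8 (14.8 and 4.89 CPM, 0.331) and Mybl2 (0.401), which encodes B-Myb, and 4 were higher. Myc had 116 and 219 CPM (1.89), Mycn 51 and 118 UMIs (3.27) and Lin52, a MuvB subunit, a ratio of 1.58. Of 10 G1 cyclins and kinases Cdk4 was lower (53.0 and 33.3 CPM, 0.629) and Ccnd2 higher (151 and 251 CPM, 1.66). Of 17 CDK inhibitors and antiproliferative genes 11 were higher and 0 lower, with a median of 0.74. They were led by Cdkn2d (14.8 and 40.9 CPM, 2.77), an inhibitor of the G1 kinases, Gadd45g (46.9 and 122, 2.59) and Gadd45b (803 and 1527, 1.90), both stress-inducible. Of 12 checkpoint genes 3 were lower, Rad9a (0.647), Fzr1 (0.659) and Pkmyt1 (0.662), and Mdm2, the p53 inhibitor, was higher (59.9 and 99.6, 1.66).

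In fibroblast-like cells, where 8.44% of all genes were lower and 16.4% higher, 8 of 17 inhibitor genes were higher and 1 was lower (Cdkn2a, 3.02 and 0.772 CPM, 0.256), with a median of 0.57. Gadd45b had 596 and 1284 CPM (2.15), Cdkn2c 7.07 and 14.9 (2.11) and Tob1 73.0 and 143 (1.96). Of 32 other mitosis genes 7 were lower (21.9%) and 1 higher (3.1%), which is not near the shares of all genes. Of 33 other replication genes 4 were lower (12.1%) and 3 higher (9.09%), closer to those shares. Among these replication genes were Dnmt1, the maintenance methyltransferase (39.1 and 19.1 CPM, 0.490), and Orc6 of the origin recognition complex (27.7 and 43.2, 1.56). Of 22 transcription regulators 6 were higher and 1 lower, with E2f7 (11 and 43 UMIs, 3.72), Mycn (18 and 49 UMIs, 2.59) and Myc (229 and 376 CPM, 1.64) at the top. Of 10 G1 cyclins and kinases 3 were higher, Ccnd1 (1.77), Cdk2 (1.76) and Cdc25a (1.70), a phosphatase, and 0 lower. Of 11 checkpoint genes 3 were higher, the kinase Chek1 (12 and 63 UMIs, 4.99), Trp53, which encodes p53 (49.3 and 93.3 CPM, 1.89), and the fork protein Timeless (1.78), and Pkmyt1 was lower (0.650).

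In monocyte and macrophage-like cells, where 12.1% of all genes were lower and 14.6% higher, 3 of 15 inhibitor genes were higher, Tob2 (133 and 271 CPM, 2.03), Tob1 (57.8 and 115, 1.99) and Gadd45b (445 and 724, 1.63), and 0 were lower. Of 25 other mitosis genes there, 3 were lower, among them the centromere chaperone Hjurp (11.4 and 4.46 CPM, 0.390), and 4 higher, among them the tubulin-binding Stmn1 (46.4 and 80.0, 1.72). Of 28 other replication genes 7 were lower, with Orc2 of the origin complex (19.2 and 8.91 CPM, 0.464) the lowest past 50 UMIs, and 3 higher, with Atad2 (10.98 and 18.7, 1.70) the highest. Of 19 transcription regulators 2 were higher and 1 lower, of 10 G1 cyclins and kinases 2 higher and 1 lower (Cdk6, 51.6 and 30.97 CPM, 0.6005), and of 8 checkpoint genes 1 higher (Mdm2, 321 and 541 CPM, 1.69) and 1 lower, all of them counts near the shares of all genes.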

How the data were processed

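The data are 1 WT and 1 KO droplet RNA library from imiquimod-treated skin. The deposited matrices hold raw UMI counts, per the file headers, and the values show no scaling. The submitters' processing notes name Cell Ranger 3.0.2, Seurat 3.0 and mm10, and the header of the matrices names software version 3.1.0. The barcode filter used beforehand was, in the sources used here, not given, and the shallowest barcode held 500 UMIs.

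Barcodes with 200 or more genes and no more than 10% of UMIs from mitochondrial genes were used. Scrublet (scanpy 1.11.5) called 0 WT and 67 KO cells doublets (0.655% of KO). A caller that marks none has not worked, so the main values keep all cells, and an alternative removed the highest scores (1623 WT and 891 KO cells). A cell entered a class with at least 3 markers, at least 5 marker UMIs and a summed marker level above a cut (64 per 10000 UMIs for keratinocytes, 32 for fibroblasts, 24 for monocytes and macrophages), unless it carried markers of another class. This left 3895 WT and 2490 KO cells without a class. Within a factor of 1.25 of the keratinocyte cut lay 587 WT and 575 KO cells. Classes and ranges with at least 200 cells in each library were compared.

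UMIs were summed per class and library and divided by the class total (CPM). Ratios have exact conditional intervals, levels exact Poisson intervals and shares exact Clopper-Pearson intervals, at 95%. For detection, cells were thinned at random to 1000 or 5000 UMIs and shallower cells were left out. The calculations were tested on simulated data. Genes of 9 of the 40 members overlap another protein-coding gene in GENCODE M21, and whether counting used the strand is not given. Alternatives covered scaling, mitochondrial share, depth, doublets, gate margin, thinning and the fold. All 40 members are accounted for. In the keratinocyte class any member with 20 UMIs may be named. In other compared classes those of highest level and of highest or lowest ratio are named, and from each other list the 3 highest and 3 lowest ratios among genes with 50 UMIs past 1.5-fold. Of these, 1 gene is not reported here. Genes outside this rule, where a count of 5 or fewer is spelled out, were named after their values were seen. Members, lists and tests were chosen with earlier results of these data known, and the cuts of classes and ranges were set after marker levels had been seen, some being changed after a first run of all values.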

Additional observations from a re-analysis of the deposited data

Results flagged for a closer look

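Mcm6 differed in direction between 2 classes: its KO over WT ratio was 0.585 (0.529 to 0.647) in keratinocyte-like and 1.65 (1.25 to 2.20) in fibroblast-like cells. The difference between the classes was not tested, and it rests on 1 library per genotype. The cells that entered no class, which the comparisons do not use, also carried G2/M genes, with a sum of 736 CPM in 3895 WT cells and 619 CPM in 2490 KO cells. Their median depth was 2064 UMIs in WT and 3044 in KO.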

How the results depend on the processing

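The medians given next moved by more than the counting error (taken as 0.5 of the interval's width) of the list's sum. That error belongs to the summed UMIs and does not measure the uncertainty of a median over genes. The S phase median of -0.53 in keratinocyte-like cells was -0.57 on the median-of-ratios scale, -0.49 with at most 5% mitochondrial UMIs, -0.56 in cells with at least 5000 UMIs, -0.44 without the highest doublet scores, -0.59 under a stricter gate, -0.41 with cells thinned to 1000 UMIs, -0.49 within the Krt79 range, -0.26 within the outer follicle range, -0.44 within the basal range, -0.40 with ranges weighted alike. The G2/M median of -1.06 in keratinocyte-like cells was -1.10 on the median-of-ratios scale, -1.01 with at most 5% mitochondrial UMIs, -1.04 in cells with at least 5000 UMIs, -1.01 without the highest doublet scores, -0.87 under a stricter gate, -0.88 with cells thinned to 1000 UMIs, -0.89 within the Krt79 range, -0.49 within the outer follicle range, -0.79 within the basal range, -0.66 with ranges weighted alike. The S phase median of 0.25 in fibroblast-like cells was 0.16 on the median-of-ratios scale, 0.33 without the highest doublet scores, 0.35 under a stricter gate, 0.11 with cells thinned to 1000 UMIs, 0.18 over genes with a UMI in each library. The G2/M median of -0.43 in fibroblast-like cells was -0.52 on the median-of-ratios scale, -0.33 without the highest doublet scores, -0.00126 under a stricter gate, 0.013 with cells thinned to 1000 UMIs, -0.26 over genes with 50 UMIs. The S phase median of 0.37 in monocyte and macrophage-like cells was 0.73 with cells thinned to 1000 UMIs. The G2/M median of -0.44 in monocyte and macrophage-like cells was 0.25 with cells thinned to 1000 UMIs.

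The G2/M median thus turned above 0 with thinned cells in fibroblast-like and monocyte and macrophage-like cells, and the cause was not tested. Cenpe in fibroblast-like cells reversed to 0.030 (log2) under a stricter gate, and Ccne1 and Uhrf1 in monocyte and macrophage-like cells both to 0.14 with cells thinned to 1000 UMIs. With a fold of 2 instead of 1.5, the S phase genes lower in keratinocyte-like cells went from 9 to 4 and those higher from 2 to 0. The G2/M genes higher in fibroblast-like cells went from 1 to 0, and in monocyte and macrophage-like cells the lower S phase genes went from 3 to 1 and the lower G2/M genes from 4 to 2. The median-of-ratios scale took the lower S phase genes of fibroblast-like cells from 0 to 2, and it shifted all log2 ratios by -0.18 over all kept cells and by less than 0.1 in each class. The share of keratinocyte-like cells with 2 or more of the 40 genes at 1000 UMIs, 28.2% and 26.2% in WT and KO, was 15.999% and 13.04% at 600 UMIs, 51.03% and 48.8% at 2000, 79.6% and 80.3% at 5000 and 71.6% and 88.5% without thinning. With at least 1 gene it was 63.01% and 64.04%, with at least 3 11.6% and 8.79%, and with Mki67 or Top2a 6.38% and 3.25%. The share of fibroblast-like cells with 2 or more of the 40 genes at 1000 UMIs, 9.1% and 10.8% in WT and KO, was 4.01% and 4.11% at 600 UMIs, 23.6% and 27.9% at 2000, 60.2% and 60.6% at 5000 and 74.3% and 72.9% without thinning. With at least 1 gene it was 40.03% and 43.1%, with at least 3 1.34% and 1.84%, and with Mki67 or Top2a 0.625% and 0.221%. The share of monocyte and macrophage-like cells with 2 or more of the 40 genes at 1000 UMIs, 11.2% and 15.8% in WT and KO, was 6.03% and 6.78% at 600 UMIs, 32.5% and 39.6% at 2000, 71.7% and 77.1% at 5000 and 85.01% and 79.1% without thinning. With at least 1 gene it was 46.2% and 54.3%, with at least 3 2.69% and 4.07%, and with Mki67 or Top2a 1.42% and 1.88%. Another random draw gave 19.1% for KO monocyte and macrophage-like cells. Of the values of single genes under these settings, 637 moved by less than their counting interval, 73 by more, and 3 reversed as given. The 5000-UMI cells, equal range weights and second draw were chosen after seeing the data. No paired analysis was possible because each genotype has 1 library. Few UMIs limit what can be said of the G2/M genes in fibroblast-like and in monocyte and macrophage-like cells, where 3 and 11 of 21 had under 20, and whether depth or low levels set this was not tested.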
